A study of Mus musculus with 2 samples.

Results

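The 40 genes described here encode the contractile apparatus of striated muscle, its calcium handling, the factors that switch on the muscle program and the acetylcholine receptor of the muscle endplate. They were listed by symbol, and for each symbol the RefSeq transcript with the highest read total was taken. They are 40 of the 23571 genes in the count table, and every one of them had at least 1 read. The 26 sarcomere genes are the main part of the list, beside 3 genes of energy metabolism and the cytoskeleton, 3 of excitation-contraction coupling, 3 myogenic factors and 5 genes of the acetylcholine receptor and its kinase.

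Sequencing was run on RNA of mTEChi, thymic medullary epithelial cells that carry much MHC class II, to ask how Clp1, a subunit of the machinery that cleaves the 3' end of new transcripts, affects transcript ends and levels in these cells. The Clp1 knockdown library came from GFP+ mTEChi and the Ctr library from GFP- mTEChi of the same lentigenic mouse of the B6 strain, so both groups shared the animal and the treatment. That mouse carried shRNAs against Clp1, driven with the ZsGreen reporter (the GFP signal of the sort) by the doxycycline-inducible TRE3G promoter, and the TetOn3G transactivator driven by the EF1 promoter. It received doxycycline food at 2 g/kg for 2 weeks from 3 weeks of age. Cells were sorted as CD45-negative, high for MHC class II and low or intermediate for Ly51. The number of libraries was 1 per group, from 1 mouse, so no difference below has a replicate check and no p-value is given. Intervals are exact (Clopper-Pearson) 95% intervals of a read ratio. They cover counting error only, taking each read as independent, and with 1 library per group they cover no spread between mice. These PCR reads carry no molecular identifiers, so copies of 1 molecule could count as several reads and make the intervals too narrow. A call as 2-fold higher or lower means that the libraries together held 10 reads or more of a gene, that its scaled ratio reached 2-fold and that its interval left out a ratio of no change. Ratios are on the log2 scale, Clp1 knockdown over Ctr.

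Counts summed over all transcripts were 37524730 for the knockdown library and 28464803 for the Ctr library. A read shared by several transcripts enters these sums once for each, so they exceed the number of reads counted. Clp1 itself had 812 reads in the knockdown library and 1573 in the Ctr library, 39.7% of the Ctr level after scaling. All 13 listed markers of mTEChi, such as Aire, had reads in both libraries, with summed levels of 18160.7 and 16679.7 RPKM, the usual read density per transcript length and library size, without Aire, whose length was not given. H2-Aa, H2-Ab1 and Cd74 carried most of these sums. Epcam (1.34), Cd40 (1.26), Krt5 (1.12) and Krt14 (1.10) were 2-fold higher in the knockdown library, Cd86 (-1.01) was 2-fold lower and the other 8 were not called. Markers of other cells differed more. Summed levels in the knockdown library were 10.2 RPKM for 6 endothelial markers, 38.3 for 6 thymocyte markers, 55.4 for 6 fibroblast markers and 63.0 for 4 red cell markers. In the Ctr library the same sums were 184.3, 136.2, 141.6 and 2269.2 RPKM. Of these 22 markers 18 were 2-fold lower in the knockdown library and 0 were 2-fold higher, and none of them was at 0 in either library. Their part in the values below was not tested.

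A striated muscle fibre is built of sarcomeres, in which myosin of the thick filament pulls on actin of the thin filament and troponin makes this pull depend on calcium. Fast, slow, developing and cardiac muscle use different genes for most of these proteins. In the mouse thymus a small fraction of medullary epithelial cells takes on a muscle-like program, and thymic display of muscle antigens is studied because antibodies to the acetylcholine receptor or to its kinase MuSK cause myasthenia gravis. In such bulk libraries, fewer muscle-like cells and less muscle RNA per cell cannot be told apart.

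Promoter sequence is shown first for 3 genes of the endplate that moved in both directions and hold the same motif. Factors of the MyoD family, to which Myod1, Myog and Myf6 belong, bind E-boxes, of the form CANNTG, and CAGCTG is a form often bound in muscle. Promoters (RefSeq, GRCm38.p6, 250 bases before to 50 after each start) were matched for 33 of the 40 genes, with none for Tnnt3, Myod1, Myf6, Actn3, Tnni2, Neb and Chrnd. CAGCTG, which reads the same on both strands and is a subset of CANNTG, was found in 15 of the 33, or 45.5%, against 18.3% of all 27025 genes with a promoter. The looser CANNTG was found in 87.9% of the 33, against 75% of all genes. The windows below run 5′ to 3′ on the strand of the gene, with CAGCTG in capitals.
Chrna1, chr2:73580413-73580442, minus strand: ctgtgggcagctCAGCTGtcatgcgggcac
Chrna1, chr2:73580365-73580394, minus strand: tagctgtggagtCAGCTGgcttccaaggcc
Musk, chr4:58285882-58285911, plus strand: gtgagttctcccCAGCTGgccacgtccatc
Chrng, chr1:87205644-87205673, plus strand: atatcctgggaaCAGCTGacaatgcagtgg
Chrng, chr1:87205667-87205696, plus strand: gcagtggtcagaCAGCTGgtggggccagct

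The motif starts at -92 and -44 from the start of Chrna1, at -68 in Musk and at -155 and -132 in Chrng. Chrna1 and Musk were 2-fold higher in the knockdown library and Chrng was 2-fold lower. The promoter of Chrnb1, also 2-fold higher, was matched and does not hold CAGCTG. Of the 15 genes with CAGCTG 4 were called higher, 4 lower and 7 neither, beside 22.0% higher and 19.7% lower among all 18993 genes with 10 reads. A match describes these letters and is not a binding site.

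The sarcomeric actins are shown for a different box. The CArG box, bound by serum response factor, was found on either strand in 4 of the 33 promoters, or 12.1%, against 1.81% of all genes. The skeletal and the cardiac actin gene both held it, in capitals here, starting at -73 in Acta1 and -47 in Actc1. The MEF2 box, bound by the MEF2 partners of the myogenic factors, was found in 1 of the 33, that of Ttn at -166, against 0.636% of all genes.
Acta1, chr8:123894829-123894858, minus strand: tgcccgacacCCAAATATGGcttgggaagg
Actc1, chr2:114052903-114052932, minus strand: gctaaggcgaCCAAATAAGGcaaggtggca
Ttn, chr2:76982694-76982723, minus strand: ttctgaaaggCTAAATTTAGcactgccaat

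The 40 genes together took 24951 reads in the knockdown library and 21934 in the Ctr library, which is 664.9 and 770.6 RPM, the usual share of the library's reads. Actn3, Ttn and Des alone gave 76.15% of the knockdown sum and 76.01% of the Ctr sum. Of the 39 genes with 10 reads, 24 were called, or 61.5%, against 41.6% of all 18993 genes with as many reads. There were 10 higher (25.6%, against 22.0% of all genes) and 14 lower (35.9%, against 19.7% of all genes). The median log2 ratio of the 39 was -0.27, and that of all genes was 0.03 with quartiles of -0.75 and 0.85. After subtraction of a trend on GC content the median of the 39 was -0.01 and that of all genes 0.07. Counted over every transcript of these symbols, 65 with 10 reads, the median turned to 0.38, but these transcripts hold only 44 distinct pairs of counts and the value is that of Tnnt3, whose 8 transcripts carry the same reads. The nearest gene inside the threshold was Ttn at -1.20, and the nearest outside were Des at -0.96, Myh6 at -0.89 and Myog at 0.78.

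Levels per length spanned several orders of magnitude. In the knockdown library the highest were Actn3 at 135.0 RPKM, Des at 19.6, Myog at 18.6, Tnni1 at 12.5 and Acta1 at 11.5. In the Ctr library the highest were Actn3 at 111.7 RPKM, Des at 38.8, Tnni1 at 16.7, Mylpf at 15.4, Acta1 at 15.0 and Myog at 11.0. Levels of at least 1 RPKM were found for 20 genes in the knockdown library and 24 in the Ctr library. Below 0.1 RPKM stood 3 genes in the knockdown library and 7 in the Ctr library, among them Mb, Casq1 and Myod1, which had 0 reads in the Ctr library.

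**Figure D1:**
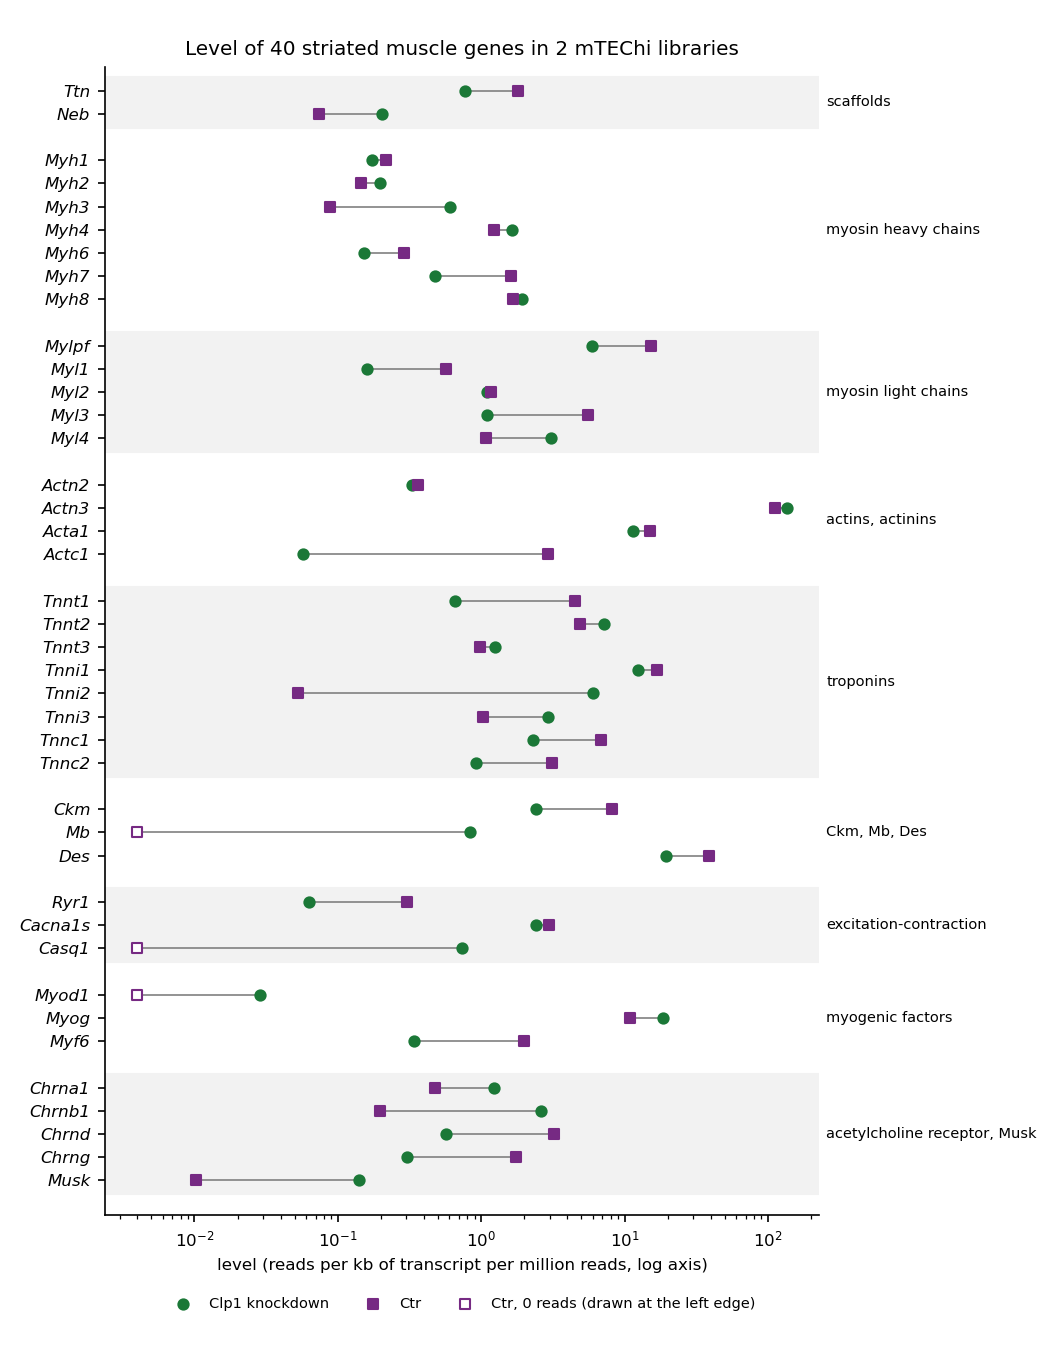
Level of each of the 40 genes in the Clp1 knockdown library (circles) and the Ctr library (squares), in RPKM on a log axis, grouped by role. Actn3 stands highest in both libraries (135.0 and 111.7), and the 3 open squares at the left edge are Mb, Casq1 and Myod1 with 0 Ctr reads.

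The giant scaffold proteins went opposite ways. Ttn, which encodes the titin spring that reaches from the Z-disc to the middle of the sarcomere, had 2958 reads in the knockdown library and 5225 in the Ctr library, a log2 ratio of -1.20 (-1.27 to -1.13). Neb, which encodes nebulin, the ruler of the skeletal thin filament, had 171 reads in the knockdown library and 47 in the Ctr library (1.49, 1.01 to 1.98). The Ttn call ended after subtraction of a trend on length (-0.58) and from last-exon reads (-0.31), and the Neb call ended with reads divided by 10 (1.39).

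Among the 7 myosin heavy chains, the motors of the thick filament, 1 was higher, 1 lower and 5 were not called. Among all genes 22.0% were higher and 19.7% lower. Myh3, the embryonic form, had 137 reads in the knockdown library and 15 in the Ctr library (2.81, 2.04 to 3.69). Myh7, the slow fibre and ventricular form, had 109 reads in the knockdown library and 279 in the Ctr library (-1.73, -2.07 to -1.41). The adult fast forms lay between these extremes. Myh4 had 372 and 211 reads in the knockdown and Ctr libraries (0.44, 0.19 to 0.69), Myh2 had 45 and 25 (0.47, -0.27 to 1.24), and Myh1 had 39 and 37 (-0.30, -0.99 to 0.39). The perinatal Myh8 had 442 reads in the knockdown library and 294 in the Ctr library (0.21, -0.01 to 0.43), and the atrial Myh6 had 35 and 50 (-0.89, -1.56 to -0.24). Per length, Myh8 and Myh4 were the highest myosin heavy chains in the knockdown library, at 1.92 and 1.65 RPKM. In the Ctr library the order was Myh8 at 1.68 RPKM, Myh7 at 1.62 and Myh4 at 1.23.

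Of the 5 myosin light chains, which stiffen and tune the myosin lever arm, 3 were lower and 1 was higher. The shares of all genes were 19.7% lower and 22.0% higher. The ventricular and slow form Myl3 had 37 reads in the knockdown library and 143 in the Ctr library (-2.33, -2.89 to -1.80). Fast fibre light chains were lower too: Mylpf had 167 and 331 reads in the knockdown and Ctr libraries (-1.37, -1.64 to -1.09), and Myl1 had 6 and 16 (-1.79, -3.44 to -0.37). The exception was Myl4, the atrial and embryonic form, with 101 reads in the knockdown library and 27 in the Ctr library (1.53, 0.90 to 2.20). Myl2, the ventricular and slow regulatory chain, had 26 reads in the knockdown library and 21 in the Ctr library, and its interval of -0.96 to 0.83 includes both a near 2-fold fall and no change.

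The actins and the actinins that anchor them at the Z-disc held the most abundant member of the list. Actn3, the fast fibre actinin, had 14461 reads in the knockdown library and 9075 in the Ctr library, a small difference of 0.29 (0.26 to 0.33) on the log2 scale. Acta1, skeletal actin, had 618 and 612 reads in the knockdown and Ctr libraries (-0.36, -0.53 to -0.20), and Actn2, the general sarcomeric actinin, had 37 and 31 (-0.12, -0.85 to 0.61). Actc1, cardiac actin, had 3 reads in the knockdown library and 115 in the Ctr library (-5.64, -7.94 to -4.06), the lowest ratio of the list. Acta1 made up 99.5% of the reads of both actin genes in the knockdown library (98.6 to 99.9) and 84.2% in the Ctr library (81.3 to 86.8).

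Troponin binds calcium through its C subunit, blocks contraction through its I subunit and holds tropomyosin through its T subunit. Of the 8 troponin genes 2 were higher, 3 lower and 3 not called, against 22.0% higher and 19.7% lower of all genes. Tnni2, the fast inhibitory subunit, had 151 reads in the knockdown library and 1 in the Ctr library (6.86, 4.36 to 12.2). Tnni3, the cardiac inhibitory subunit, had 91 reads in the knockdown library and 24 in the Ctr library (1.54, 0.88 to 2.26). Tnnt1, the slow T subunit, had 23 and 120 reads in the knockdown and Ctr libraries (-2.76, -3.47 to -2.11). Both calcium-binding subunits were lower. Tnnc1, slow and cardiac, had 61 and 138 reads in the knockdown and Ctr libraries (-1.56, -2.02 to -1.11), and Tnnc2, fast, had 24 and 61 (-1.72, -2.47 to -1.02). Tnnc2 shares 592 bp of exon with the antisense gene Ube2c, which had 590 reads in the knockdown library and 497 in the Ctr library, and reads of such pairs could not be told apart. The remaining 3 were not called. Tnni1, the slow inhibitory subunit, had 508 and 517 reads in the knockdown and Ctr libraries (-0.40, -0.58 to -0.22), Tnnt2, cardiac and embryonic, had 314 and 160 (0.59, 0.32 to 0.88), and Tnnt3, fast, had 51 and 30 (0.39, -0.29 to 1.09).

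Counted together, the 26 sarcomere genes gave 5 higher, 9 lower and 12 not called, against 22.0% higher and 19.7% lower of all genes. Their median was -0.21. That median turned to 0.0355 after subtraction of a trend on GC content, so it gives no direction for the sarcomere as a whole. Over every transcript it turned to 0.38, again the value of Tnnt3, since 8 transcripts of Tnnt3 and 9 of Tnnt2 hold largely the same reads.

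**Figure D2:**
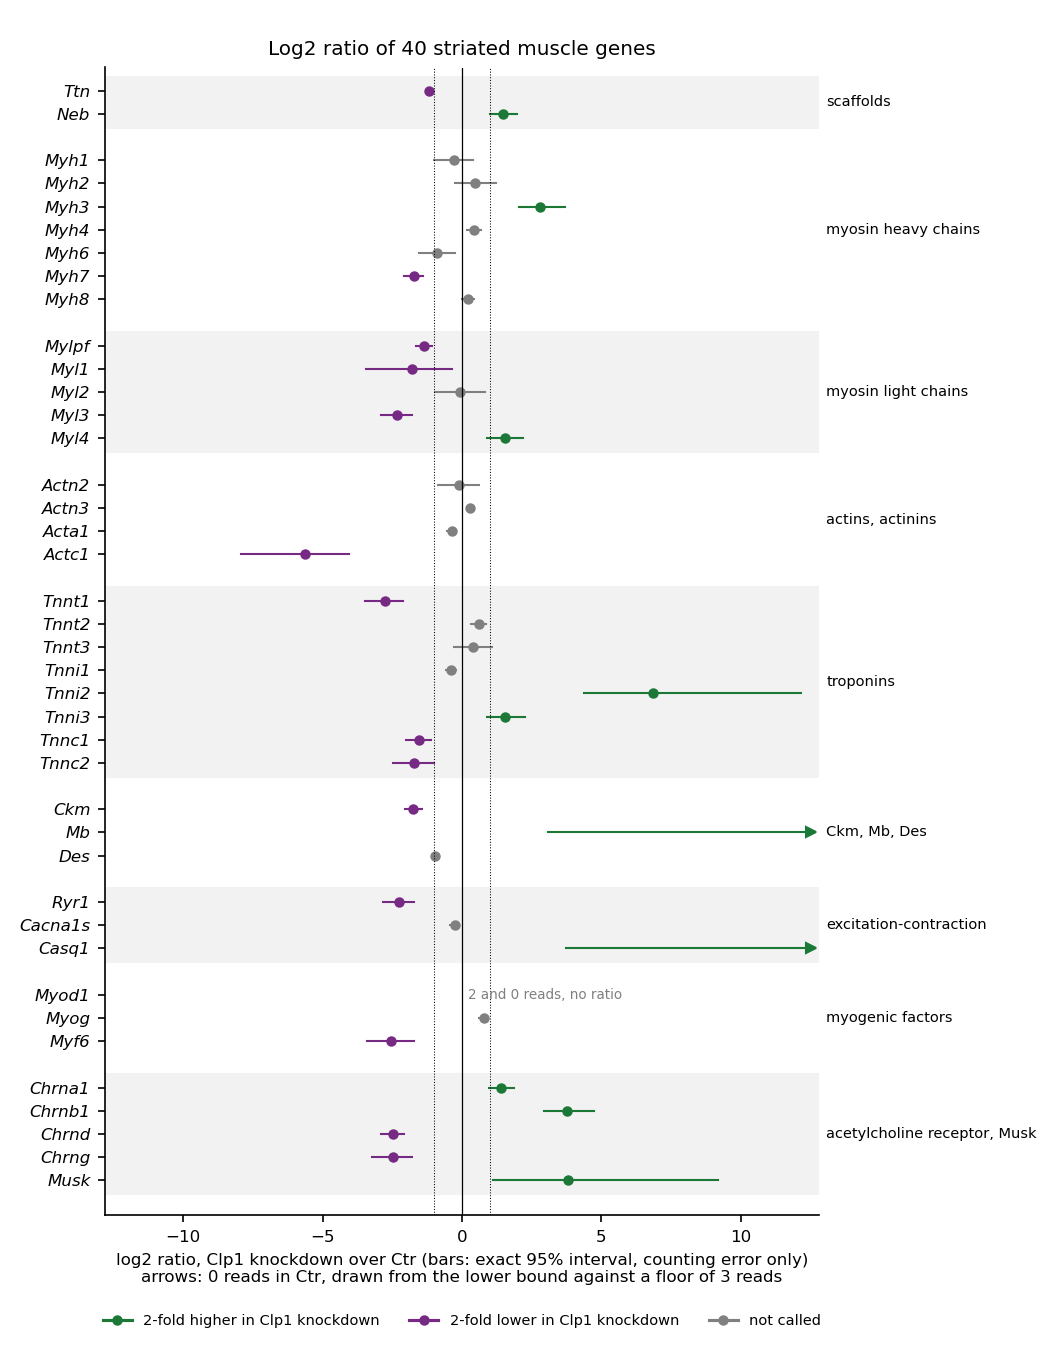
Log2 ratio of the Clp1 knockdown library over the Ctr library for each of the 40 genes, with exact 95% intervals for counting error. Green genes are called 2-fold higher (10), purple genes 2-fold lower (14), grey genes are not called, dotted lines mark 2-fold, and arrows for Mb and Casq1 start at the lower bound that a floor of 3 Ctr reads allows.

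Of the 3 genes of energy metabolism and the cytoskeleton 1 was called higher and 1 lower. Among all genes 22.0% were higher and 19.7% lower. Ckm, muscle creatine kinase, had 128 reads in the knockdown library and 329 in the Ctr library (-1.74, -2.05 to -1.44). It shares 451 bp of exon with the antisense gene A930016O22Rik, which had 74 reads in the knockdown library and 153 in the Ctr library. Mb, the oxygen store myoglobin, had 33 reads in the knockdown library and 0 in the Ctr library, at least 8.46-fold higher if the Ctr library is set to a floor of 3 reads. Its other transcripts had 31 reads in the knockdown library and 1 in the Ctr library. Mb shares 64 bp of exon with the antisense gene Apol6, which had 59 reads in the knockdown library and 0 in the Ctr library. Des, which encodes the intermediate filament desmin, also used by vascular smooth muscle, had 1581 reads in the knockdown library and 2372 in the Ctr library (-0.96, -1.06 to -0.87). The 15 mural and smooth muscle markers summed to 197.3 RPKM in the knockdown library and 188.6 in the Ctr library, with 2 higher and 7 lower and a median of -0.70. None of these markers was at 0, and their part in the Des value was not tested.

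Excitation-contraction coupling links the action potential to calcium release. Ryr1, the calcium release channel, had 36 reads in the knockdown library and 133 in the Ctr library (-2.26, -2.84 to -1.72). Cacna1s, its voltage sensor, had 570 and 528 reads in the knockdown and Ctr libraries (-0.27, -0.44 to -0.09). Casq1, the calcium buffer of the fast fibre store, had 52 reads in the knockdown library and 0 in the Ctr library, at least 13.3-fold higher. The channel, its sensor and its calcium store gave 1 lower, 1 not called and 1 higher, against 19.7% lower and 22.0% higher of all genes.

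Of the myogenic factors, the transcription factors that commit cells to muscle, Myog was by far the most abundant. It drives terminal differentiation and had 1034 reads in the knockdown library and 463 in the Ctr library (0.78, 0.62 to 0.94), short of 2-fold. Myf6, a factor of mature fibres, had 16 reads in the knockdown library and 71 in the Ctr library (-2.53, -3.41 to -1.73). Myod1, the factor of committed myoblasts, had 2 reads in the knockdown library and 0 in the Ctr library, both under the floor, so no ratio is given. Myog made up 98.5% of the reads of Myog and Myf6 in the knockdown library (97.5 to 99.1) and 86.7% in the Ctr library (83.5 to 89.5).

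All 5 genes of the acetylcholine receptor and its kinase passed the 2-fold call, 3 of them higher and 2 lower. Among all genes 41.6% passed it, 22.0% higher and 19.7% lower. The fetal endplate receptor is built of alpha, beta, delta and gamma subunits. The alpha subunit gene Chrna1, which carries the main target of antibodies in myasthenia gravis, had 199 reads in the knockdown library and 58 in the Ctr library (1.40, 0.97 to 1.85). Chrnb1, the beta subunit, had 211 reads in the knockdown library and 12 in the Ctr library (3.76, 2.92 to 4.73). Chrnd, the delta subunit, had 62 and 267 reads in the knockdown and Ctr libraries (-2.48, -2.91 to -2.08), and Chrng, the fetal gamma subunit, had 22 and 95 (-2.49, -3.23 to -1.81). Musk, the kinase that clusters the receptor, had 18 reads in the knockdown library and 1 in the Ctr library (3.79, 1.13 to 9.17). The 4 subunits therefore split, alpha and beta on the higher side and delta and gamma on the lower. Their reads summed to 494 in the knockdown library and 432 in the Ctr library, a log2 ratio of -0.19 (-0.37 to 0.005), so that opposite changes of single subunits hardly showed in the sum.

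Partners of the receptor at the synapse, Musk included, form a list drawn up after the values were seen, with no weight as evidence. They gave 3 higher and 0 lower of the 7 with 10 reads, or 42.9% and 0%, against 22.0% and 19.7% of all genes. Musk and Dok7 reached 10 reads only through the knockdown library, and Musk was already counted above. Dok7, the MuSK adaptor, had 35 reads in the knockdown library and 0 in the Ctr library, at least 8.97-fold higher, and Lrp4, the agrin receptor, had 378 and 129 reads in the knockdown and Ctr libraries (1.17, 0.88 to 1.47). Acetylcholinesterase and its collagen tail were the most abundant. Ache had 5337 and 4244 reads in the knockdown and Ctr libraries (-0.05, -0.11 to 0.01), and Colq had 5068 and 2829 (0.46, 0.40 to 0.53). Agrn, which encodes agrin, the nerve signal to MuSK, had 861 and 1211 reads in the knockdown and Ctr libraries (-0.87, -0.998 to -0.743), the lowest ratio of these partners. Chrne, the adult epsilon subunit that replaces gamma, had 46 and 47 reads in the knockdown and Ctr libraries (-0.41, -1.03 to 0.21). Rapsn, which clusters the receptor, had 0 reads in both.

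To set skeletal against cardiac forms, 19 genes used mainly by skeletal muscle and 9 used mainly by the heart were compared. The skeletal forms gave 4 higher (21.1%, against 22.0% of all genes), 6 lower (31.6%, against 19.7% of all genes) and 9 not called, with a median of -0.27. The cardiac forms gave 2 higher (22.2%), 4 lower (44.4%) and 3 not called, with a median of -0.88. Summed reads of the skeletal forms were 18001 in the knockdown library and 12382 in the Ctr library (0.16, 0.13 to 0.19), but Actn3 held 80.3% and 73.3% of these. Without it the sums were 3540 in the knockdown library and 3307 in the Ctr library, and the ratio turned to -0.28 (-0.35 to -0.21). Summed reads of the cardiac forms were 777 in the knockdown library and 957 in the Ctr library (-0.68, -0.82 to -0.54), and without Tnnt2 463 and 797 (-1.16, -1.33 to -0.995). Of the 9 cardiac forms, the 5 that slow skeletal muscle uses little (Myh6, Myl4, Actc1, Tnnt2 and Tnni3) gave 2 higher, 1 lower and 2 not called, with a median of 0.59. Their reads summed to 544 in the knockdown library and 376 in the Ctr library (0.15, -0.04 to 0.35), and without Tnnt2 to 230 and 216 (-0.29, -0.56 to -0.01). The cardiac forms therefore gave no common direction.

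A finer grouping by fibre type was made after the values were seen and has no weight as evidence. The calls in it stand beside 22.0% higher and 19.7% lower of all genes. The 6 slow fibre forms (Myh7, Myl2, Myl3, Tnnt1, Tnni1, Tnnc1) all had ratios below 0, with 4 called lower and a median of -1.64. Of these, Myl2 lay near 0 (-0.07, -0.96 to 0.83). Its sign turned from last-exon reads, after a length trend and with reads divided by 10. Reads of the slow forms summed to 764 in the knockdown library and 1218 in the Ctr library (-1.05, -1.18 to -0.92). The 9 fast fibre forms gave 1 higher, 3 lower and 5 not called, with a median of 0.29 and ratios, after 0.5 was added to scaled counts, between -1.70 and 6.34. The developmental myosins Myh3, Myh8 and Myl4 had ratios above 0, with 2 called higher and summed reads of 680 in the knockdown library and 336 in the Ctr library (0.64, 0.45 to 0.83). For troponin alone, the 3 slow genes summed to 592 in the knockdown library and 775 in the Ctr library (-0.77, -0.92 to -0.61), and the 3 fast genes to 226 and 92 (0.92, 0.56 to 1.28), of which Tnni2 gave 151 and 1.

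**Figure D3:**
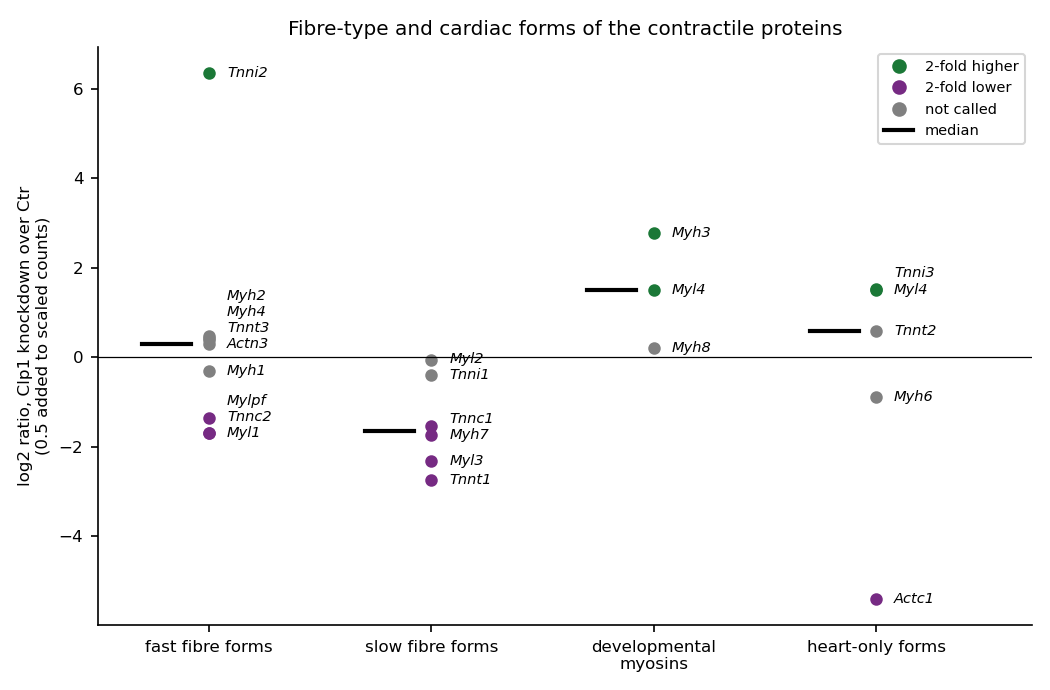
Log2 ratio of the Clp1 knockdown library over the Ctr library, with 0.5 added to scaled counts, for fast fibre forms, slow fibre forms, developmental myosins and cardiac forms little used by slow muscle; bars are medians (0.29, -1.64, 1.51 and 0.59) and Myl4 appears in 2 columns. All 6 slow forms lie below 0, Myl2 only at -0.07, and the fast and the cardiac columns spread on both sides.

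Several of these genes lie next to each other in the genome, and neighbours did not always move together. Coordinates are those of mm9. There were 15 of the 40 genes in 6 groups with gaps under 200 kb. Chrnd (chromosome 1, 89087227 to 89096644) and Chrng (89102386 to 89108410), 5741 bp apart on the same strand, had nearly equal ratios over the whole transcript. Chrnd made up 73.8% of their joint reads in the knockdown library (63.1 to 82.8) and 73.8% in the Ctr library (68.9 to 78.2). By parts the 2 genes differed. In the earlier exons Chrnd was at -2.15 (-2.87 to -1.48) and Chrng at -5.42 (-8.50 to -3.51). In the last exon Chrnd was at -2.65 (-3.19 to -2.14) and Chrng at -0.73 (-1.71 to 0.22). Tnnt1 (chromosome 7, 4456172 to 4467984) and Tnni3 (4469907 to 4475831) are only 1922 bp apart, also on the same strand, and went opposite ways. Tnnt1 made up 20.2% of their joint reads in the knockdown library (13.2 to 28.7) and 83.3% in the Ctr library (76.2 to 89.0). The fast pair Tnni2 and Tnnt3, 54425 bp apart on chromosome 7, differed as well, with Tnni2 at 74.8% of their joint reads in the knockdown library (68.2 to 80.6) and 3.23% in the Ctr library (0.0816 to 16.7).

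Other groups held smaller differences. Myh6 and Myh7, 3760 bp apart on chromosome 14, both had ratios below 0, and Myh7 made up 75.7% of their reads in the knockdown library (67.9 to 82.5) and 84.8% in the Ctr library (80.5 to 88.5). On chromosome 11, between 66891802 and 67122136, lie Myh3, Myh2, Myh1, Myh4 and Myh8, of which Myh3, at the end of the row, was called higher and the others were not called. Tnni1 and Tnnt2, 29885 bp apart on chromosome 1, were both not called, with Tnni1 at 61.8% of their reads in the knockdown library (58.4 to 65.1) and 76.4% in the Ctr library (73.0 to 79.5).

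The reads of each transcript were also deposited by part, which shows whether a ratio held along the transcript. The parts come from the same reads and are not independent of the totals. There were 31 genes with 10 or more reads over both libraries in the earlier exons and in the last exon upstream of any proximal poly(A) site. In 28 of them both parts had a ratio of the same sign, and in 26 the intervals of the parts overlapped. For Mb and Casq1, with 0 Ctr reads in both parts, sign and overlap were fixed in advance. For Neb and Tnni2 the last exon had 0 Ctr reads, so its interval had no upper bound. Des was alike in both parts, at -0.96 in the earlier exons and -0.96 in the last exon. Actc1 was at -5.66 and -5.59, and Ckm at -1.76 and -1.79.

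The intervals lay apart in 5 genes. Chrna1 had 74 reads in the earlier exons in the knockdown library and 0 in the Ctr library, at least 19.0-fold higher, but 125 and 58 reads in the last exon (0.73, 0.27 to 1.20). The Ctr library thus held reads of Chrna1 only in the last exon, which spans 3027 of its 4288 bp. Chrng had 2 reads in the earlier exons in the knockdown library and 66 in the Ctr library (-5.42, -8.50 to -3.51), and 18 and 23 in the last exon (-0.73, -1.71 to 0.22). Ttn was lower in the earlier exons (-1.24, -1.31 to -1.18), which hold most of its 101674 bp, with 190 and 181 reads in the last exon in the knockdown and Ctr libraries (-0.31, -0.61 to -0.01). Tnni3 had a ratio of 0.98 (0.26 to 1.74) in the earlier exons and 4.38 (1.78 to 9.73) in the last exon. The last-exon value came from 27 reads in the knockdown library and 1 in the Ctr library. Tnni3 also shares 86 bp of exon with 6030429G01Rik on the same strand, and the part of this overlap was not tested. Actn3 had 0.26 (0.21 to 0.30) in the earlier exons and 0.47 (0.38 to 0.57) in the last exon. The calls of Chrna1, Chrng and Ttn therefore rested on their earlier exons. Myf6, with 1 and 0 reads there in the knockdown and Ctr libraries, was measured almost wholly by its last exon, with 15 and 71 reads.

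**Figure D4:**
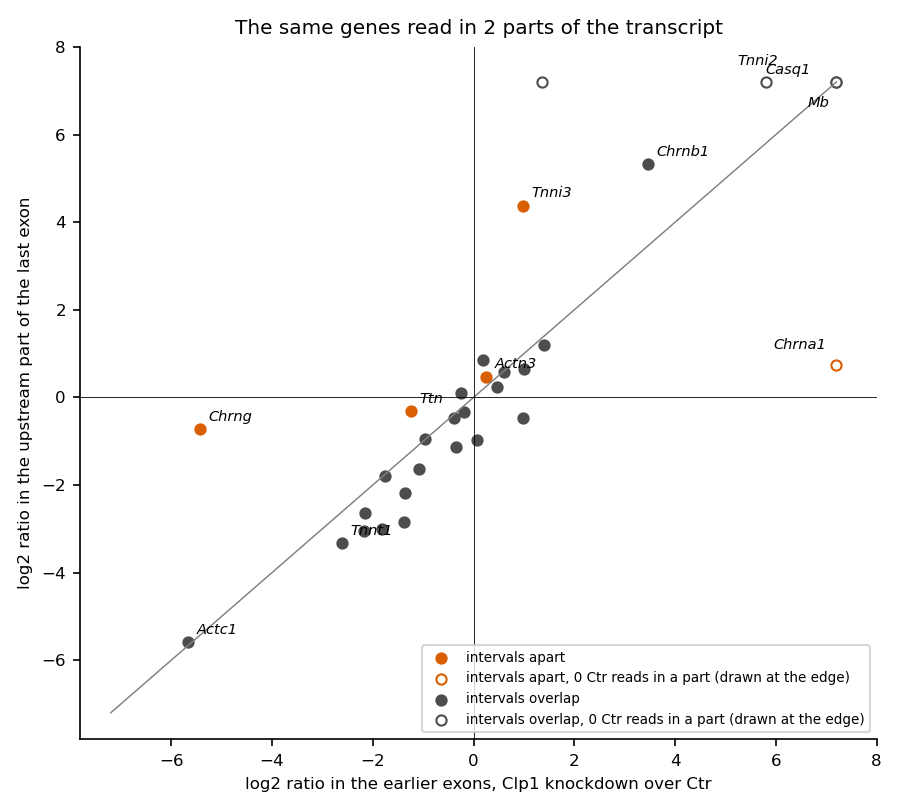
Log2 ratio of the Clp1 knockdown library over the Ctr library in the earlier exons (x axis) and in the last exon upstream of any proximal poly(A) site (y axis) for the 31 genes with 10 reads in each part; the grey line marks equal ratios and open points have 0 Ctr reads in a part. Most points follow the line, and the 5 orange genes (Chrna1, Chrng, Ttn, Tnni3, Actn3) have intervals that lie apart.

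The readout of the study, the d3'UTR ratio, divides the read density beyond the proximal poly(A) site by that of the rest of the last exon. Only 2 of the 40 genes have such a distal 3'UTR in the table. Cacna1s had 0 reads over its 287 bp in both libraries, beside 336 upstream reads in the knockdown library and 323 in the Ctr library. A floor of 3 distal reads would give ratios of 0.0180 in the knockdown library and 0.0187 in the Ctr library, so the ratios lie under these. Chrng had 2 distal reads in the knockdown library and 4 in the Ctr library, and with 0.5 added to both parts the ratios were 0.217 and 0.307, too few reads to tell apart.

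Beyond the 40, a list of 85 other genes used in striated muscle gave 75 with 10 reads. Some of them, such as Actn1, Mef2a and Tpm1, are not particular to muscle, so the shares describe the list and not a muscle program. Of the 75, 34 were higher (45.3%, against 22.0% of all genes), 18 lower (24%, against 19.7% of all genes) and 23 not called. Their median was 0.46, against 0.03 for all genes. Placing the 8 of them with 0 reads in 1 library at the bound of a 3-read floor left that median at 0.46. By the bound nearest 0, the clearest rises were Nrap, a thin filament anchor at the fibre end, with 149 and 0 reads in the knockdown and Ctr libraries (at least 38.2-fold higher), and Mymk, the membrane protein that fuses myoblasts, with 119 and 0 (at least 30.5-fold higher). The growth inhibitor Mstn had 207 reads in the knockdown library and 5 in the Ctr library (4.99, 3.75 to 6.63).

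By the same bound, the clearest falls in the same list were Casq2, Sln, Myoz3 and Tcap. These 4 were picked as extremes and give no direction for the Z-disc or the calcium store. Casq2, the cardiac and slow calcium buffer, had 14 reads in the knockdown library and 283 in the Ctr library (-4.72, -5.61 to -3.95), and Sln, which inhibits the calcium pump, had 13 and 266 (-4.73, -5.66 to -3.94). Casq1 and Casq2 thus went opposite ways. Myoz3, a calcineurin-binding Z-disc protein, had 3 reads in the knockdown library and 217 in the Ctr library (-6.56, -8.84 to -4.99), and Tcap, which caps titin at the Z-disc, had 0 and 45 (at least 19.5-fold lower). Reads were 0 in both libraries for Smpx, Lmod2, Tmod4, Myf5, Rapsn, Cav3 and Cacng6.

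**Figure D5:**
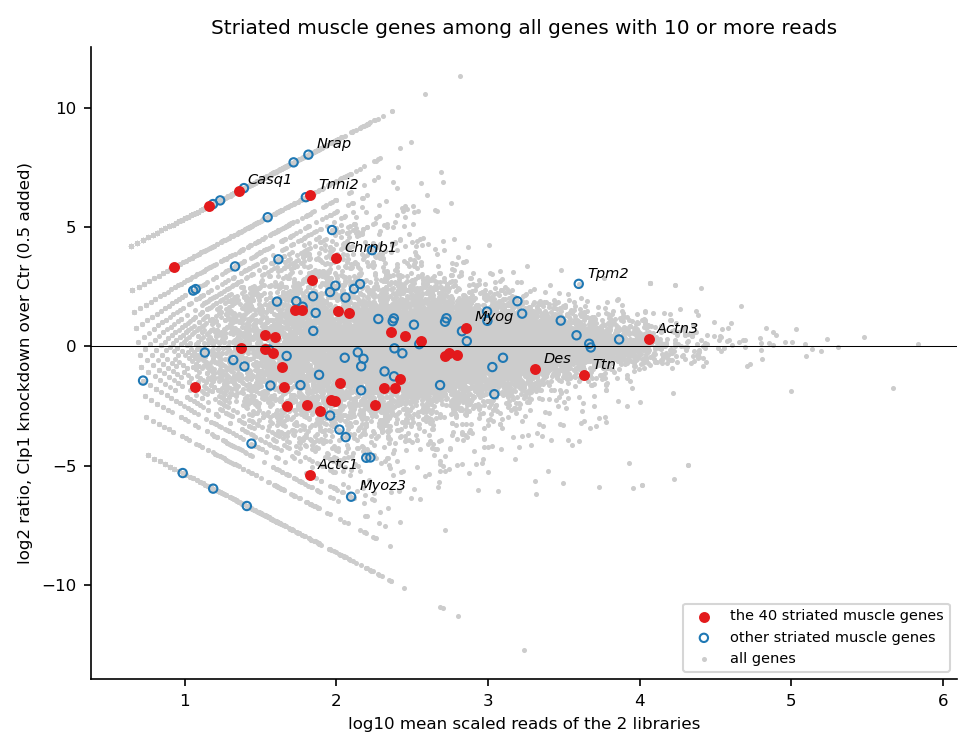
Log2 ratio of the Clp1 knockdown library over the Ctr library (0.5 added to scaled counts) against the log10 mean of scaled reads for all 18993 genes with 10 or more reads (grey), the 40 genes less Myod1 (red) and other striated muscle genes (blue rings). Actn3, Ttn and Des are the red points farthest to the right, and most others lie on the left, where the grey cloud is widest.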

How the data were processed

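Per the labels and the study's methods, poly(A) libraries from the GFP+ and GFP- mTEChi were made with the Smarter Ultra Low Input and Nextera kits and sequenced single-end. The submitters' processing notes name mm9, Bowtie 1.0.0, bedtools and DESeq, and the methods say that reads contained in exons were counted. The table the authors deposited gives raw whole-number counts for 30794 RefSeq transcripts, and a second table of the authors holds the same counts for the parts of 27567 transcripts with their lengths. The authors' table of comparisons holds normalized means, fold changes of Ctr over knockdown and p-values, and was not used here. Strand in counting and removal of duplicate reads are not given in the sources used here for these libraries. No column was left unmapped (0).

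Symbols came from a RefSeq table of GRCm38.p6 and matched 30216 transcripts; mm9 coordinates, overlaps and GC content came from GENCODE vM1. Scaling of the counts used median-of-ratios size factors (1.14 for the knockdown library, 0.877 for Ctr), and RPKM was computed from counts and lengths. With 0 reads in a library, folds are bounds against 3 reads there (2.63 scaled reads in the knockdown library, 3.42 in Ctr). List medians used 0.5 added to scaled counts. The members and the lists were chosen with earlier results of these data known. Values are given for every member with at least 50 reads or a call, and, of the other muscle genes, for the 4 largest rises and the 4 largest falls by the bound nearest 0, of which 1 gene is not reported here. Other muscle genes beyond these, among synapse partners, were named after their values were seen. Scaling, minimum reads, transcript choice, pseudocount, reads used, GC and length were varied. Scripts were tested on simulated counts and used Python 3.11.15 with numpy 2.4.6, pandas 2.3.3, scipy 1.17.1 and statsmodels 0.14.6, and edgeR 4.0.16 in R 4.3.3 for TMM factors.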

Additional observations from a re-analysis of the deposited data

How the results depend on the processing

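No paired analysis was possible because each group has 1 library, and leaving out a library was not possible for the same reason. Of 434 values of single genes under 12 alternatives, 408 kept their side of the 2-fold call (called ones with the same sign, uncalled ones within their interval), 10 uncalled ones moved beyond it, 14 lost the call and 2 gained it. Part of the 408 was fixed in advance. A minimum of 1, 50 or 100 reads (39, 35 and 27 values) cannot change the ratio of a gene. Leaving out overlapping members (27 values) cannot do so either, nor can the choice of transcript for the 31 members with 1 transcript. These values say nothing on stability. None of the 24 called genes changed sign, but 7 values of 4 uncalled genes did: Myl2 from last-exon reads (0.11), after a length trend (0.26) and with reads divided by 10 (0.21), Actn2 after a GC trend (0.21) and with reads divided by 10 (0.0365), Acta1 after a GC trend (0.0833) and Tnnt3 from last-exon reads (-0.48). Of the 24 called genes 12 kept the call in every alternative run. Under other scaling (total reads or TMM, 39 values each) no count of calls changed. Such scaling shifts all genes alike, and here by little: Ttn was at -1.199 in the main setting, -1.219 with total reads and -1.197 with TMM. Only 2 members have a distal 3'UTR, so leaving out distal reads (39 values) could change little either. The values of these 3 settings therefore say little on stability.

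The list medians were less stable. Over every transcript (65 transcripts but 44 distinct pairs of counts, so that the same reads enter many times) the median of the members turned to 0.38. Medians turned to 0.38 for sarcomere genes and for troponins, to -1.20 for scaffolds, to -0.0446 for myosin heavy chains and to 4.08 for Ckm, Mb and Des. That of the acetylcholine receptor genes rose to 3.31. Of the 65 transcripts 16 were called higher and 16 lower, against 21.7% higher and 19.2% lower of all 25343 transcripts with 10 reads. The receptor median turned to -0.53 with a minimum of 50 or 100 reads or with the least-read transcripts, each of which leaves out Musk, and was 0.725 from last-exon reads. The median of the myogenic factors turned to 0.78 with a minimum of 1 or 100 reads, and that of troponins to 0.0947 with 100 reads. After subtraction of a trend on GC content (known for 81.1% of genes and all 40 members), medians turned to 0.0355 for sarcomere genes, 0.28 for troponins, 0.15 for actins and actinins and -0.0477 for scaffolds, Myog passed 2-fold at 1.10, and the cause was not tested. A length trend turned troponins to 0.10 and ended the call of Ttn (-0.58), and last-exon reads ended the calls of Ttn (-0.31), Chrna1 (0.73) and Chrng (-0.81) and gave one for Acta1 (-1.13). Chosen after seeing the data were 2 alternatives. Without the 12 members that overlap another annotated gene, 6 of 27 were called higher (22.2%, against 21.9% of all genes) and 10 lower (37%, against 19.7%). With reads divided by 10, as if 10 PCR reads stood for 1 molecule, 3 were called higher (7.69%, against 13.2% of all genes) and 11 lower (28.2%, against 13.6%), and Casq1, Chrna1, Mb, Musk, Myf6, Myl1, Myl4, Neb, Tnnc2 and Tnni3 lost their calls. Depth limits the genes with few reads most: the finite intervals of the members had a median half-width of 0.56 on the log2 scale.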
